A study of Mus musculus with 24 samples.

Results

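The extracellular matrix set described here held 36 genes that fibroblasts and neighbouring cells of connective tissue express, namely collagens, proteoglycans, elastic fibre proteins, adhesive glycoproteins, matrix proteases with their inhibitors, and 3 genes of the cells themselves. Each gene was read through the probe sets that the annotation of the MOE430A array assigned to that symbol alone, and the probe set with the highest mean over 24 arrays stood for the gene. Of the 36 genes, 35 had such a probe set, among 12393 genes with one on the array, and Fbn1 was not analysed here. The measured levels passed a filter on low values for 33 of the 35, among 9429 genes that passed. Mfap4, a microfibril-associated protein, and Pdgfrb, the receptor of pericytes for platelet-derived growth factor, did not pass on any array, with intensities of at most 14.1 and 22.6. A member passed by exceeding its array's own 40th percentile (29.8 to 36.7) on at least 4 arrays, and 28 members did so on all 24.

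Fibroblasts secrete most of the interstitial matrix. Collagens I, III and V form its fibrils, collagen VI and small proteoglycans coat and space them, collagen IV underlies epithelium, vessels and smooth muscle as basement membrane, and elastin on a microfibril scaffold gives recoil. In the prostate this stroma, together with smooth muscle, surrounds the secretory ducts and exchanges signals with the epithelium. Matrix metalloproteinases and their inhibitors set how quickly it turns over.

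Ventral prostate was taken from wild-type mice of the inbred strains 129X1, AKR, BALB/c, C57BL/6, FVB and SWR, all 8 weeks old, untreated and on a standard diet. Total RNA from 4 biological replicates of each strain was hybridised to 24 one-colour arrays, and the series set out to map modifiers of cancer through expression in parental strains. The labels do not say whether a replicate was 1 mouse or a pool, so the p-values measure the spread between these samples. An array has no read depth, and precision depends on how many arrays there are and on the spread between them.

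Every array was nearest in expression to another array of its own strain (24 of 24), and correlations between arrays were 0.898 to 0.975. Luminal epithelial genes were bright, with mean intensities of 3994 for probasin (Pbsn), 6499 for Msmb and 1009 for keratin 8 (Krt8). SWR replicate 4 and 129X1 replicate 4 stood apart in skeletal muscle genes, with scores (mean log2 deviation from the average over the arrays, 11 genes) of 1.19 and 1.82 against -0.65 to 0.59 over the other 22 arrays. Intensities below are the deposited values after each array was rescaled to the same trimmed mean. Differences are on a scale of log2(intensity + 16), which understates changes of dim genes. The level of 1 probe set cannot be set against that of another.

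Among the 33 measured members, 22 differed among the 6 strains by limma's F test (adjusted p under 0.05), against 36.4% of all 15775 probe sets tested. The strain share of the variance of a member had a median of 56.95%, against 41.4% over all probe sets. The largest spans between the highest and the lowest strain mean were 3.35-fold for Col6a3 (a chain of collagen VI), 2.58-fold for Timp3 (an inhibitor of metalloproteinases), 2.42-fold for Pdgfra (a growth factor receptor of fibroblasts), 2.22-fold for Mmp2 (a gelatinase) and 2.09-fold for Fn1 (fibronectin). The 11 that did not pass were Col5a1, Col6a2, Col15a1, Lum, Eln, Fbln1, Fbln5, Tnc, Timp1, Timp2 and Vim, with adjusted p from 0.0567 for Timp2 to 0.906 for Col5a1.

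**Figure D1:**
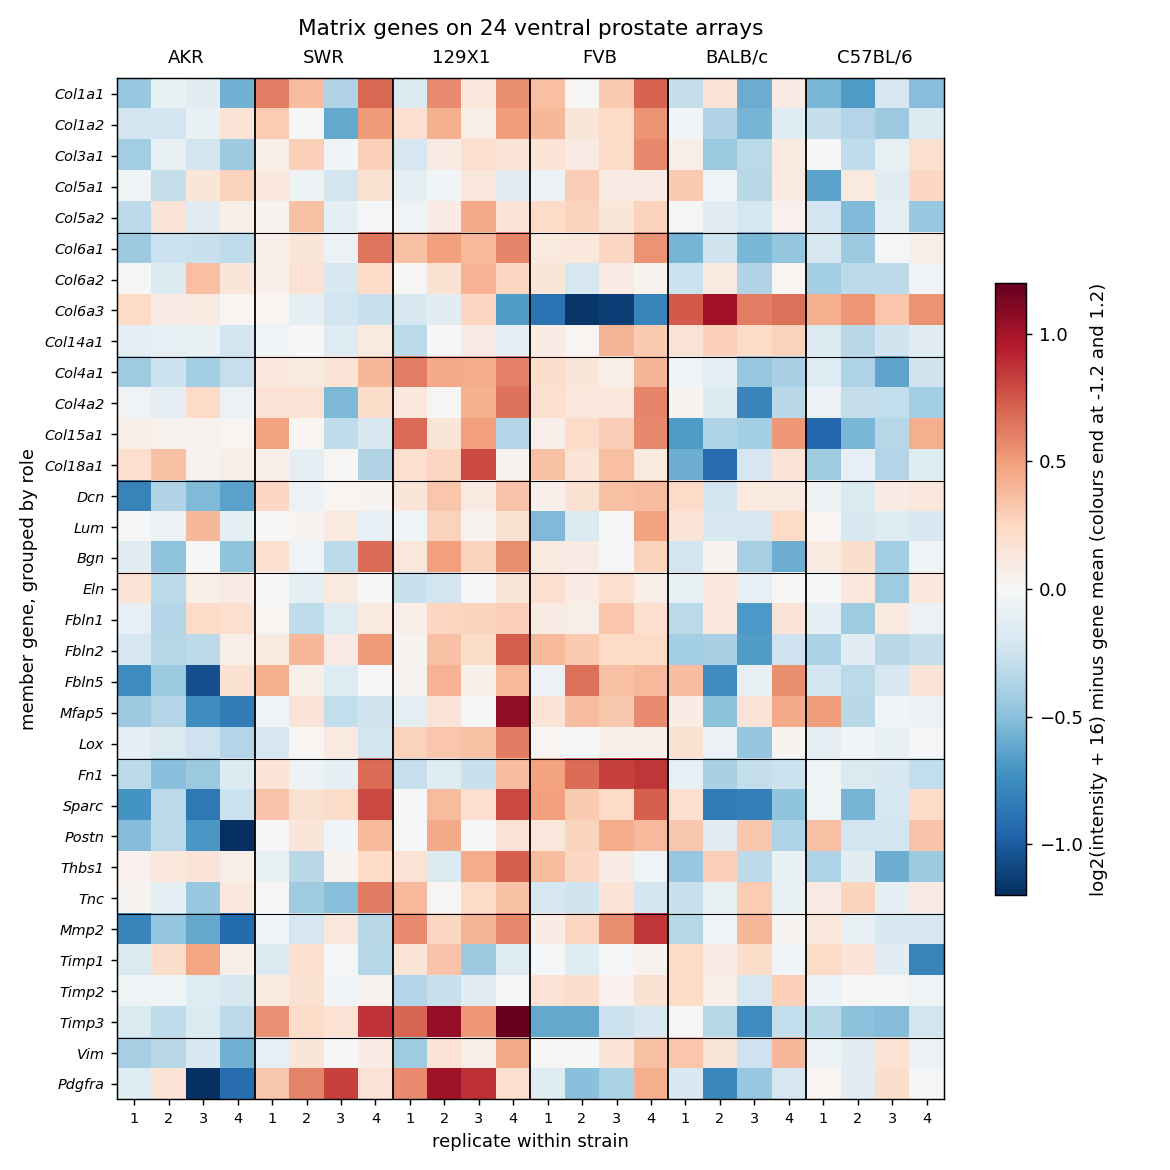
Each cell is log2(intensity + 16) of 1 member on 1 array minus the mean of that gene over 24 arrays, with 33 members in lines by role and 6 strains of 4 replicates in columns; colours end at -1.2 and 1.2. The AKR block is mostly blue (below the mean) and Col6a3 is blue in FVB and red in BALB/c.

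Each strain was then set against the mean of the other 5. These 6 comparisons share arrays and are not independent of one another. In AKR, 11 members were lower and 0 higher, against 5.12% and 4.67% of all probe sets. In 129X1, 8 were higher and 0 lower, against 6.38% and 5.27%. In FVB, 3 were higher and 2 lower, against 3.45% and 3.65%. In BALB/c, 2 were higher and 6 lower, against 8.3% and 10.6%. In C57BL/6, 1 was higher and 7 lower, against 5.65% and 5.45%. In SWR, 2 were higher and 0 lower, against 5.52% and 5.04%. At an unadjusted p under 0.05 by limma, in either direction, members that differed numbered 20 in FVB (19.9% of all probe sets), 16 in AKR (24.0%), 16 in 129X1 (24.9%), 13 in BALB/c (31.9%), 12 in C57BL/6 (24.3%) and 7 in SWR (25.2%). The median difference of the 33 members was -0.23 in AKR, 0.29 in 129X1 and 0.25 in FVB, against 0.03, 0.01 and 0.01 over all probe sets. It was 0.06 in SWR, -0.15 in BALB/c and -0.16 in C57BL/6. The highest strain mean of a member was in 129X1 for 15 and in FVB for 14, where 17.8% and 14.5% of all probe sets had theirs. The lowest was in AKR for 11 and in C57BL/6 for 11, against 13.7% and 17.1%.

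**Figure D2:**
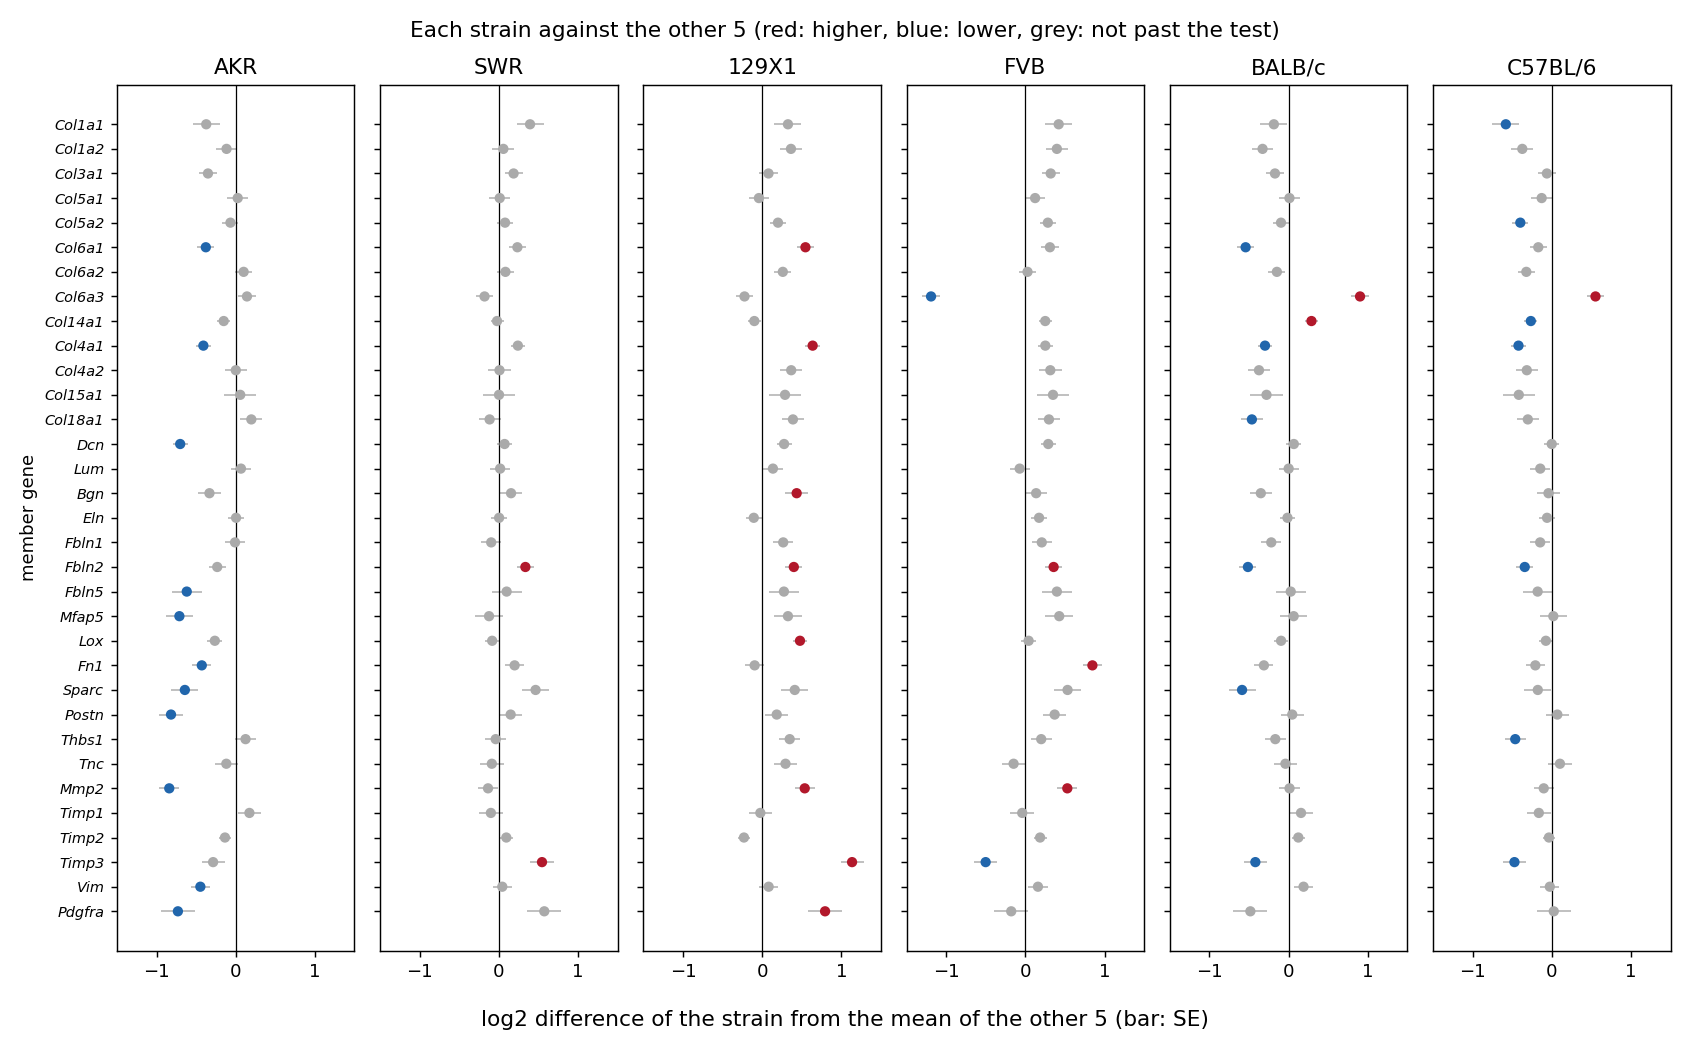
Dots give the log2 difference of each of 33 members between 1 strain and the mean of the other 5, with the SE as a bar; red dots are higher, blue lower (adjusted p under 0.05), grey not past the test. AKR holds 11 blue dots and 129X1 8 red dots, and Col6a3 lies farthest left in FVB.

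Single arrays moved some of these counts, and the shares of all probe sets called without those arrays are not given here. The count lower in AKR was 6 without AKR replicate 1, 5 without replicate 3 and 7 without replicate 4. The count higher in SWR was 0 without SWR replicate 1 or without replicate 4, and 1 without replicate 1 or 3 of AKR, 2 of SWR, 1, 2 or 3 of 129X1, 2, 3 or 4 of FVB, 2 or 3 of BALB/c, or 1, 3 or 4 of C57BL/6. That higher in FVB was 1 without FVB replicate 3 or without replicate 4, but 6 without SWR replicate 4 and 5 without 129X1 replicate 4. That lower in BALB/c was 3 without BALB/c replicate 3, and that lower in C57BL/6 was 2 without replicate 1 or 2 of that strain and 3 without its replicate 3 or 4. The count lower in FVB was 1 without SWR replicate 1 or FVB replicate 1, 2 or 3, that higher in BALB/c was 1 without BALB/c replicate 4, and that lower in 129X1 was 1 without 129X1 replicate 3 or BALB/c replicate 3. Without SWR replicate 4 and 129X1 replicate 4 together, the arrays with high skeletal muscle genes, 20 members differed among strains, 10 were lower in AKR, 6 were higher in 129X1, 6 higher in FVB and 1 higher in SWR. With the intensities as deposited, 10 members were lower and 1 higher in BALB/c. Among all probe sets, 2877 were then lower and 821 higher in BALB/c, in place of 1675 and 1310. Over all probe sets the share of called differences that were higher moved with that choice from 43.9% to 22.2% in BALB/c and from 54.8% to 65.3% in 129X1.

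A stricter standard, past all 5 pairwise tests of 1 strain against each other strain in 1 direction, was met by 5 members, against 6.02% of all probe sets. Dcn, Postn and Mmp2 were lower in AKR (0.526% of all probe sets), Fn1 was higher in FVB (0.216%) and Col6a3 was lower in FVB (0.26%). This count was 3 without AKR replicate 4, SWR replicate 1, SWR replicate 3 or C57BL/6 replicate 1. Between pairs of strains, the most members differed between 129X1 and C57BL/6, 13 being higher in 129X1 and 1 in C57BL/6, against 11.5% of all probe sets in either direction. Between 129X1 and BALB/c there were 13 (17.6%), between AKR and 129X1 12 (11.4%), and between AKR and FVB 12 (7.42%). For AKR, there were 10 against SWR (10%), 7 against BALB/c (12.6%) and 3 against C57BL/6 (11.5%). For SWR, there were 2 against 129X1 (9.2%), 4 against FVB (6.87%), 7 against BALB/c (19.8%) and 5 against C57BL/6 (7.97%). For FVB, there were 4 against 129X1 (8.49%), 9 against BALB/c (11.6%) and 10 against C57BL/6 (10.8%). The fewest differed between BALB/c and C57BL/6, where 1 member was called, against 14.6%.

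Fibrillar collagens build the tensile fibres of the stroma, and 4 of the 5 measured differed among strains. Col1a1 (1423669_at), a chain of collagen I, read 109, 145, 139.7 and 98.9 in AKR, 246, 204, 117 and 259 in SWR, 136, 237, 172 and 236 in 129X1, 204, 157, 196 and 264 in FVB, 124, 176, 96.9 and 167 in BALB/c and 101, 90.5, 133 and 104 in C57BL/6. The C57BL/6 values lay at the low end, overlapped those of AKR, SWR and BALB/c, and lay below all of 129X1 and FVB. Its difference from the other strains was -0.58 ± 0.17 (SE, adjusted p = 0.0283), 1.496-fold lower. The call was lost without C57BL/6 replicate 1, 2 or 4, and with probe sets averaged. The dimmer probe set of Col1a1 ran the other way, with its highest mean in C57BL/6 (0.27), but passed no test (F test adjusted p = 0.372). Col5a2, a chain of collagen V, which starts new fibrils, was also lower in C57BL/6, at 77.8 to 109 against 93.2 to 170.3 in the other strains (-0.40 ± 0.10 SE, adjusted p = 0.0111), though not without C57BL/6 replicate 2 or 4. Col1a2, the partner chain of Col1a1, and Col3a1, of collagen III, passed the F test without a strain standing apart from the mean of the rest. The second, dimmer probe set of Col1a2 was called higher in 129X1, at 0.54, where the brightest was at 0.36 (adjusted p = 0.0928). Their highest means were both in FVB, 1.56-fold above C57BL/6 for Col1a2 and 1.47-fold above AKR for Col3a1. Col5a1, the other collagen V chain, spanned 1.16-fold, with an F test adjusted p of 0.906.

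Collagen VI forms beaded filaments between fibrils and cells, and 2 of its 3 chains differed among strains, in opposite directions in BALB/c. Col6a3 (1424131_at) read 961, 863, 876 and 825 in AKR, 822, 745, 686 and 665 in SWR, 707, 734, 968 and 503 in 129X1, 432, 352, 362 and 459 in FVB, 1354, 1639, 1249.6 and 1287 in BALB/c and 1101, 1175, 1022 and 1185 in C57BL/6. FVB was lowest and BALB/c highest, and in both all 4 arrays lay outside the values of the other 5 strains. Col6a3 had only 1 probe set, and the strains' sequences under its probes were not examined. The differences were -1.19 ± 0.11 (SE, adjusted p = 9.14e-08) in FVB, 2.28-fold lower, and 0.90 ± 0.11 (SE, adjusted p = 3.96e-06) in BALB/c, 1.87-fold higher. It was also higher in C57BL/6, by 0.55 ± 0.11 (SE, adjusted p = 0.0017). In the order of the strains, BALB/c was not called against C57BL/6 (adjusted p = 0.184), nor C57BL/6 against AKR (0.137), while FVB fell below every other strain.

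Col6a1 (1448590_at), which assembles in the same trimer as Col6a3, read 143, 164, 163 and 158 in AKR, 208, 222, 189 and 319 in SWR, 259, 286, 266 and 307 in 129X1, 217, 219, 239 and 296 in FVB, 130.2, 166, 131 and 139.8 in BALB/c and 172, 143, 197 and 209 in C57BL/6. SWR, 129X1 and FVB were high and AKR, BALB/c and C57BL/6 low, and 2 C57BL/6 arrays reached into the range of SWR. It was 1.46-fold higher in 129X1 (0.55 ± 0.11 SE, adjusted p = 0.00129), 1.46-fold lower in BALB/c (-0.54 ± 0.11 SE, adjusted p = 0.00103) and 1.30-fold lower in AKR (-0.38 ± 0.11 SE, adjusted p = 0.0287). The call in AKR was lost without AKR replicate 1, 3 or 4. BALB/c was thus highest for Col6a3 and lowest for Col6a1, each read by its only probe set. Col6a2, the third chain, spanned 1.40-fold, and no strain differed from the rest (F test adjusted p = 0.0676). Col14a1 (1427168_a_at), a collagen on the surface of fibrils, read 87.5, 88.1, 89.4 and 79.3 in AKR, 92.0, 95.6, 83.9 and 105 in SWR, 72.8, 95.3, 103 and 87.5 in 129X1, 102, 97.3, 132 and 122 in FVB, 109, 119.9, 115 and 119 in BALB/c and 83.0, 72.3, 78.4 and 85.1 in C57BL/6. BALB/c lay within the range of FVB at the high end, and C57BL/6 was lowest, overlapping AKR, SWR and 129X1. It was higher in BALB/c by 0.29 ± 0.08 (SE, adjusted p = 0.0152) and lower in C57BL/6, with a difference of -0.27 ± 0.08 (SE, adjusted p = 0.038). The first call was lost without BALB/c replicate 4, with the intensities as deposited or with probe sets averaged, and the second without any 1 of the 4 C57BL/6 arrays or FVB replicate 4. The dimmer probe set of Col14a1 had its lowest mean in BALB/c (F test adjusted p = 0.0722).

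For reference, the sequences directly upstream of the annotated starts are shown for the 2 collagen VI chains called in opposite directions in BALB/c, for Timp3, which had the second largest span, and for Col3a1, as an example of a window with a TATA box match. They are from RefSeq on GRCm38.p6, 5′ to 3′ on the gene's strand, with matches to the motifs below in capitals. The Col6a1 window is chr10:76726045-76726294, minus strand, Col6a3 chr1:90844002-90844221, minus strand, Timp3 chr10:86300162-86300411, plus strand, and Col3a1 chr1:45311288-45311537, plus strand.
Col6a1: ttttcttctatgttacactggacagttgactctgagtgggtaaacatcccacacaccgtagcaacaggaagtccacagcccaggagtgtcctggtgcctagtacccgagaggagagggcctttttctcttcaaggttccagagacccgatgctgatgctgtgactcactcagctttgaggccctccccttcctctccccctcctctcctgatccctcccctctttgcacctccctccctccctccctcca
Col6a3: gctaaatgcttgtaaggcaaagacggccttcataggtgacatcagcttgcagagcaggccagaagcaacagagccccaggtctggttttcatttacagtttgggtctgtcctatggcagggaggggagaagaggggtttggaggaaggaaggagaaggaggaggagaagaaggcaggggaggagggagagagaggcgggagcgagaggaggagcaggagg
Timp3: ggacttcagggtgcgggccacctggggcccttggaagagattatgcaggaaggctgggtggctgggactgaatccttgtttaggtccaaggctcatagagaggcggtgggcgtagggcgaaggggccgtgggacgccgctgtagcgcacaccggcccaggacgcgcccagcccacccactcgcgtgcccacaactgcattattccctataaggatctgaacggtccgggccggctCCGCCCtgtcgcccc
Col3a1: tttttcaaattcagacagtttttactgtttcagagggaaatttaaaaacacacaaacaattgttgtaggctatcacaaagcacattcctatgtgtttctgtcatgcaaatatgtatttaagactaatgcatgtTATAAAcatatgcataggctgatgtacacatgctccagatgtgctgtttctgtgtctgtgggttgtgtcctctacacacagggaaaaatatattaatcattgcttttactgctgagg
A window of up to 250 bases was found for 22 members. TATAAA, the TATA box, searched on the gene's strand, was in 3 of them (13.6%, against 8.13% of 27025 windows of all genes). CCAAT, searched on both strands, was in 8 (36.4% against 34.5%), and GGGCGG, the GC box, on both strands, in 12 (54.5% against 33%). The Col6a1 and Col6a3 windows held none of these letters, the Timp3 window 1 GC box on the opposite strand and the Col3a1 window 1 TATAAA. A match describes the letters and not a site in use.

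Basement membrane collagens lie under epithelium and around vessels and muscle cells, and 3 of the 4 measured differed among strains. Col4a1 (1452035_at), a chain of the collagen IV network, read 248, 281, 252 and 276 in AKR, 371, 367, 381 and 450.0 in SWR, 528, 470.4, 468 and 522 in 129X1, 395, 375, 357 and 455 in FVB, 329, 312, 242 and 255 in BALB/c and 302, 259, 212 and 284 in C57BL/6. All 4 129X1 arrays lay above every array of the other strains, and AKR, BALB/c and C57BL/6 overlapped at the low end. The 129X1 difference was 0.64 ± 0.09 (SE, adjusted p = 3.43e-05), 1.56-fold. It was lower in C57BL/6 (-0.42 ± 0.09 SE, adjusted p = 0.00339), AKR (-0.41 ± 0.09 SE, adjusted p = 0.00545) and BALB/c (-0.30 ± 0.09 SE, adjusted p = 0.0257), the last not without BALB/c replicate 3 or 4. Its dimmer probe set passed no test (F test adjusted p = 0.258), and the calls in AKR and BALB/c were lost with probe sets averaged. Col4a2, the second chain, spanned 1.53-fold from BALB/c to 129X1 (F test adjusted p = 0.0329), with no strain called against the rest. Col18a1, whose end is the precursor of endostatin, was 1.38-fold lower in BALB/c (-0.46 ± 0.14 SE, adjusted p = 0.0219), though not without BALB/c replicate 1 or 2. The second Col18a1 probe set was at -0.34 in BALB/c, not called there, and was called lower in C57BL/6, at -0.52. Col15a1, a relative of Col18a1, was dim, passing the filter on 14 arrays, and spanned 1.56-fold with an F test adjusted p of 0.229.

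Small leucine-rich proteoglycans bind collagen fibrils and limit their width, and 2 of the 3 differed among strains. Dcn (1449368_at), decorin, read 984, 1342, 1196 and 1103 in AKR, 2062, 1651, 1763 and 1768 in SWR, 1916, 2191, 1862 and 2194 in 129X1, 1812, 1965, 2208 and 2240.0 in FVB, 2033, 1470.5, 1875 and 1872 in BALB/c and 1660.3, 1529.6, 1852 and 1909 in C57BL/6. Every AKR array lay below every array of the other 5 strains, which overlapped. Dcn was 1.63-fold lower in AKR (-0.70 ± 0.09 SE, adjusted p = 1.83e-05). The mean in AKR was 10.19 ± 0.19 on the log2 scale (SD, n = 4), and those of the other strains ran from 10.77 ± 0.15 in C57BL/6 to 11.01 ± 0.14 in FVB, with no called pair among them. Lum, lumican, a related proteoglycan, spanned 1.18-fold, and AKR was at 0.07 from the rest (adjusted p = 0.798). Bgn, biglycan, was 1.35-fold higher in 129X1, at 341 to 462 against 199.7 to 502 elsewhere (0.44 ± 0.14 SE, adjusted p = 0.0477), a call lost without any 1 of 17 arrays. Of its 2 dimmer probe sets, 1 was higher in 129X1 (0.54) and lower in BALB/c (-0.63), and the other was called only in AKR, where it was lower (-0.82).

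Elastic fibre genes supply elastin, its scaffold and its cross-linking enzyme, and 3 of the 6 measured differed among strains. Fbln2 (1423407_a_at), fibulin-2, a basement membrane and elastic fibre protein, read 85.9, 76.3, 77.9 and 107 in AKR, 109.7, 139, 109 and 150.3 in SWR, 104, 133, 120.5 and 178 in 129X1, 138, 129, 122 and 122 in FVB, 72.0, 73.4, 57.6 and 82.3 in BALB/c and 73.6, 90.1, 77.1 and 79.8 in C57BL/6. The strains fell into a higher set of SWR, 129X1 and FVB and a lower set of AKR, BALB/c and C57BL/6, and these overlapped only where the highest AKR array met the lowest of 129X1. All 9 pairs across these sets were called, and none within them. Against the mean of the others it was lower in BALB/c (-0.51 ± 0.11 SE, adjusted p = 0.00143) and C57BL/6 (-0.34 ± 0.11 SE, adjusted p = 0.0395) and higher in 129X1 (0.40 ± 0.11 SE, adjusted p = 0.0146), FVB (0.36 ± 0.11 SE, adjusted p = 0.0432) and SWR (0.33 ± 0.11 SE, adjusted p = 0.0465). With each array left out in turn only the call in BALB/c held throughout. Those in FVB, SWR and C57BL/6 were lost without any 1 of 16, 18 and 6 arrays, and that in 129X1 without 129X1 replicate 4.

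Mfap5 (1418454_at), a glycoprotein of microfibrils, read 104, 112, 81.5 and 74.97 in AKR, 143, 166, 116 and 122 in SWR, 134, 166, 146 and 324 in 129X1, 167, 194, 188 and 225 in FVB, 158, 100.04, 165 and 208 in BALB/c and 215, 114, 143 and 139 in C57BL/6. AKR held the lowest values and overlapped only BALB/c. The difference in AKR was -0.71 ± 0.17 (SE, adjusted p = 0.0102), 1.64-fold lower, lost without AKR replicate 3 or 4. Its dimmer probe set had its lowest mean in AKR too, at -0.30, but passed no test. Fbln5, fibulin-5, needed for elastic fibre assembly, was 1.54-fold lower in AKR (-0.62 ± 0.19 SE, adjusted p = 0.0412), although the F test did not call it (0.0744) and the call was lost without any 1 of 11 arrays. It was dim, at 7.83 to 40.04 in AKR and 13.5 to 62.0 elsewhere. Lox, lysyl oxidase, which cross-links collagen and elastin, was higher in 129X1, at 116, 122, 123 and 152 in 129X1 against 63.0 to 108, without overlap (0.48 ± 0.09 SE, adjusted p = 0.00107). The dimmer tested probe set of Lox also had its highest mean in 129X1, at 0.38, but passed no test (F test adjusted p = 0.098). Eln, elastin, and Fbln1, fibulin-1, spanned 1.18-fold and 1.32-fold, with F test adjusted p of 0.661 and 0.207.

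Adhesive and matricellular glycoproteins link cells to fibres, and 4 of the 5 differed among strains, of which 3 were lower in AKR. Postn (1423606_at), periostin, which binds collagen I and integrins, read 80.8, 96.1, 69.7 and 44.8 in AKR, 122, 138, 119.6 and 166 in SWR, 121, 175, 124 and 140.5 in 129X1, 137, 151, 173 and 165 in FVB, 158, 111, 158 and 91.4 in BALB/c and 161, 103, 103 and 160.2 in C57BL/6. AKR was lowest and overlapped only BALB/c. Postn was 1.76-fold lower in AKR (-0.82 ± 0.15 SE, adjusted p = 0.000659). Sparc (1416589_at), osteonectin, a collagen-binding protein, read 462, 619, 419 and 643 in AKR, 985, 876, 908 and 1343 in SWR, 768, 1011, 892 and 1348 in 129X1, 1094, 966, 916 and 1279.6 in FVB, 883, 421, 429.5 and 549 in BALB/c and 741, 520.1, 662 and 911 in C57BL/6. AKR and BALB/c lay low and SWR, 129X1 and FVB high, with AKR below every array of those 3. It was 1.56-fold lower in AKR (-0.64 ± 0.17 SE, adjusted p = 0.0181) and 1.503-fold lower in BALB/c (-0.59 ± 0.17 SE, adjusted p = 0.0181). The AKR call was lost without AKR replicate 1 or 3 and the BALB/c call without BALB/c replicate 2 or 3. The second Sparc probe set was also lower in AKR, at -0.58, but not called in BALB/c.

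Fn1 (1426642_at), fibronectin, read 343, 299, 311 and 382 in AKR, 481, 411, 399.7 and 695 in SWR, 353, 389, 355 and 561 in 129X1, 609, 692, 769.7 and 791 in FVB, 399.8, 324, 350.0 and 357 in BALB/c and 419.8, 380.0, 375 and 349 in C57BL/6. FVB was highest and overlapped only SWR. It was 1.80-fold higher in FVB (0.85 ± 0.12 SE, adjusted p = 5.31e-05) and 1.35-fold lower in AKR (-0.43 ± 0.12 SE, adjusted p = 0.0258), the latter not without AKR replicate 1, 2 or 3. The second, dim probe set of Fn1 passed no test (F test adjusted p = 0.652), and the calls in FVB and AKR were both lost with probe sets averaged. Thbs1, thrombospondin-1, an activator of latent TGF-beta, was 1.38-fold lower in C57BL/6 (-0.46 ± 0.13 SE, adjusted p = 0.0263), though not without C57BL/6 replicate 1, 3 or 4. Its second probe set was lower there too, at -0.62, and was higher in 129X1 at 0.93, where the brightest was at 0.35 (adjusted p = 0.0976). Tnc, tenascin-C, a matrix protein of remodelling tissue, was dim, passing the filter on 6 arrays, and spanned 1.29-fold (F test adjusted p = 0.481).

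Of the protease and inhibitor genes, 2 of 4 differed among strains. Mmp2 (1439364_a_at), a secreted gelatinase that fibroblasts make, read 59.3, 78.7, 69.3 and 52.8 in AKR, 110.1, 97.4, 127 and 87.6 in SWR, 177, 139, 157 and 179 in 129X1, 123, 140.3, 176 and 221 in FVB, 87.3, 109.8, 156 and 118 in BALB/c and 128, 107, 99.1 and 97.6 in C57BL/6. All AKR values lay below those of the other strains, and 129X1 and FVB were highest. It was 1.79-fold lower in AKR (-0.84 ± 0.13 SE, adjusted p = 9.02e-05), 1.45-fold higher in 129X1 (0.54 ± 0.13 SE, adjusted p = 0.00611) and 1.44-fold higher in FVB (0.53 ± 0.13 SE, adjusted p = 0.0106), the last not without FVB replicate 3 or 4. The second Mmp2 probe set was also higher in 129X1, at 0.36, and had its lowest mean in AKR, at -0.21, which was not called.

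Timp3 (1449335_at), an inhibitor that binds to the matrix itself, read 153, 138, 154 and 137 in AKR, 262, 208, 198 and 330.3 in SWR, 293, 379, 256 and 528 in 129X1, 108, 109, 143 and 151 in FVB, 174, 134, 96.8 and 139 in BALB/c and 134, 119, 117 and 147 in C57BL/6. 129X1 was highest and SWR next, with overlap between them, and the other 4 strains overlapped throughout. Timp3 was 2.20-fold higher in 129X1 (1.14 ± 0.15 SE, adjusted p = 7.46e-06) and 1.46-fold higher in SWR (0.54 ± 0.15 SE, adjusted p = 0.0186), the latter not without SWR replicate 1 or 4. SWR and 129X1 did not pass the pairwise test (-0.49 ± 0.19, adjusted p = 0.117). It was also below the mean of the others in FVB (-0.50 ± 0.15 SE, adjusted p = 0.0381), C57BL/6 (-0.47 ± 0.15 SE, adjusted p = 0.0388) and BALB/c (-0.42 ± 0.15 SE, adjusted p = 0.047), while no pair among these and AKR was called. The calls in FVB, C57BL/6 and BALB/c were lost without any 1 of 4, 7 and 14 arrays, respectively. All 4 probe sets of Timp3 were higher in 129X1, by 0.41 to 1.14, and the calls in FVB and C57BL/6 were lost with probe sets averaged. In FVB the other 3 probe sets stood at 0.12, 0.14 and -0.53, none of them called. Timp1 and Timp2, soluble inhibitors, spanned 1.22-fold and 1.27-fold, with F test adjusted p of 0.686 and 0.0567. Of the other 5 probe sets of Timp2, 4 passed the filter, 3 of these passed the F test and all 4 had their lowest mean in BALB/c or AKR, so Timp2 depends on the probe set read.

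**Figure D3:**
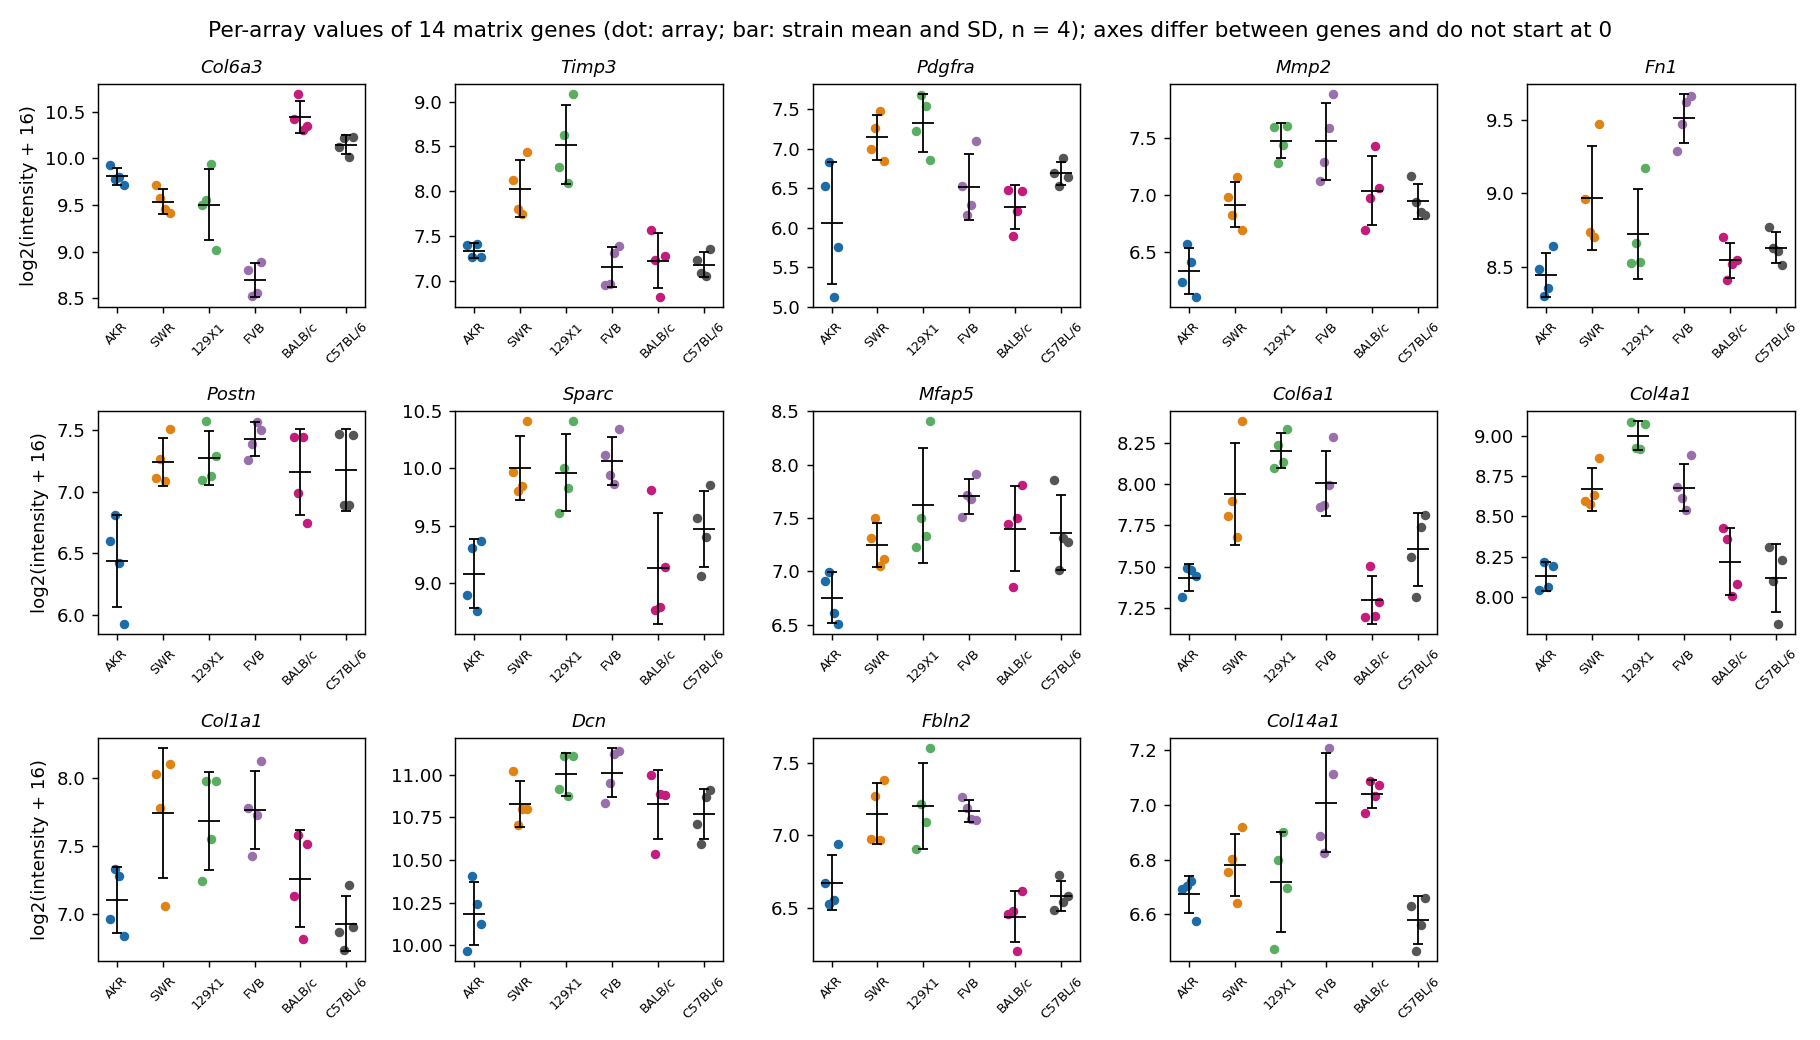
Per-array values of the 14 members described in full, as log2(intensity + 16) on the vertical axis and strain on the horizontal axis, with strain mean and SD (n = 4); the axes differ between genes and do not start at 0. The AKR dots of Dcn and Mmp2 lie below all others, and the 129X1 dots of Col4a1 lie above all others.

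Genes of the cells themselves were Pdgfra, the receptor by which fibroblasts respond to platelet-derived growth factor, and Vim, vimentin, the intermediate filament of mesenchymal cells. Pdgfra (1421917_at) read 76.1, 98.0, 18.9 and 37.9 in AKR, 111, 138, 163 and 98.6 in SWR, 134, 190.2, 171 and 100.1 in 129X1, 76.0, 55.8, 62.0 and 121 in FVB, 73.6, 43.7, 58.0 and 72.4 in BALB/c and 87.6, 76.6, 102 and 84.1 in C57BL/6. SWR and 129X1 lay above every AKR array, while the AKR arrays themselves spread widely and overlapped FVB, BALB/c and C57BL/6. It was 1.66-fold lower in AKR (-0.73 ± 0.21 SE, adjusted p = 0.0316), a call lost without AKR replicate 3 or 4, and 1.74-fold higher in 129X1 (0.80 ± 0.21 SE, adjusted p = 0.0154), lost without 129X1 replicate 2 or 3. Its dimmer probe set was called lower in BALB/c, at -0.58, and not in AKR or 129X1. Vim was 1.36-fold lower in AKR (-0.45 ± 0.12 SE, adjusted p = 0.0214), at 221, 232, 259 and 193 in AKR against 216 to 412 elsewhere, though not without AKR replicate 1 or 4. All 3 probe sets of Vim were lower in AKR, at -0.45, -0.68 and -0.74. In whole tissue RNA, fewer fibroblasts and less RNA of a gene per fibroblast cannot be told apart.

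Marker genes of neighbouring cell types also differed among the strains. Of 12 smooth muscle markers, all 12 passed the F test, against 36.4% of all probe sets. Among them 10 were higher in FVB, 5 in SWR and 4 in 129X1, against 3.45%, 5.52% and 6.38% of all probe sets. In BALB/c 9 were lower (10.6%), in C57BL/6 2 (5.45%), in AKR 1 (5.12%) and in SWR 1 (5.04%). Their score was -0.83 to -0.55 in BALB/c, -0.52 to 0.09 in C57BL/6, -0.32 to -0.01 in AKR, 0.02 to 0.75 in SWR, 0.15 to 0.55 in 129X1 and 0.29 to 0.57 in FVB. The score of the 33 members was -0.23 to -0.17 in AKR, -0.19 to -0.07 in C57BL/6, -0.25 to 0.01 in BALB/c, -0.07 to 0.19 in SWR, 0.07 to 0.30 in FVB and 0.09 to 0.35 in 129X1. The lowest mean for the matrix genes was that of AKR (-0.21 ± 0.03, SD, n = 4), and for the muscle genes that of BALB/c (-0.68 ± 0.13). Of 6 adipocyte markers tested, 4 were higher in FVB (3.45% of all probe sets) and 5 in BALB/c (8.3%). In C57BL/6 4 were lower (5.45%) and in AKR 1 (5.12%). Their score ranged over -0.38 to 1.90 in FVB, -0.06 to 1.81 in BALB/c, -0.41 to 0.19 in 129X1, -0.64 to -0.28 in SWR, -0.92 to -0.34 in AKR and -0.86 to -0.72 in C57BL/6. Of 6 basal epithelium markers, 4 were higher in SWR (5.52% of all probe sets) and 3 in 129X1 (6.38%). In BALB/c 6 were lower (10.6%) and in C57BL/6 4 (5.45%). Of 10 luminal epithelium markers, 9 passed the F test. In AKR 1 was higher and 3 lower (4.67% and 5.12% of all probe sets), and in C57BL/6 2 and 1 (5.65% and 5.45%). In 129X1 and FVB 1 each was lower (5.27% and 3.65%). In BALB/c 6 were higher and 1 lower (8.3% and 10.6%), and the score of these markers was 0.26 to 0.47 there. It was -0.28 to 0.09 in AKR, -0.14 to -0.04 in SWR, -0.23 to -0.03 in 129X1, -0.08 to 0.07 in FVB and -0.20 to 0.05 in C57BL/6. BALB/c thus lay above all other arrays in luminal markers and had 6 matrix genes called lower, and the part of epithelial content in those calls was not tested. Of 8 endothelial markers 5 passed the F test, of 9 leukocyte markers 5, of 9 skeletal muscle markers 4 and of 2 Schwann cell markers 1. The share over all probe sets was 36.4%. The mesothelium marker tested, Upk3b, did not pass (adjusted p = 0.795).

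After the smooth muscle score was added to the fit, 11 members differed among strains in place of 22. Those lower in AKR were then 5 in place of 11, those higher in 129X1 2 in place of 8, and those lower in BALB/c 0 in place of 6. Dcn, Postn and Mmp2 stayed lower in AKR, at -0.68, -0.68 and -0.85, and with the adipocyte score as the covariate at -0.57, -0.75 and -0.78. With the adipocyte score, members lower in AKR numbered 4 in place of 11, and 0 in place of 5 were apart from every other strain. Of the members lower in BALB/c, Col4a1, Sparc and Timp3 had differences of 0.01, 0.10 and 0.28 with the smooth muscle covariate, none of them called. Smooth muscle cells make several of the members themselves, and the part of muscle content in these differences was not tested. Both scores differed among strains, so adding them can weaken strain calls for any probe set. The shares of all probe sets called in these fits are not given here, so the lower counts cannot be read as particular to the members.

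**Figure D4:**
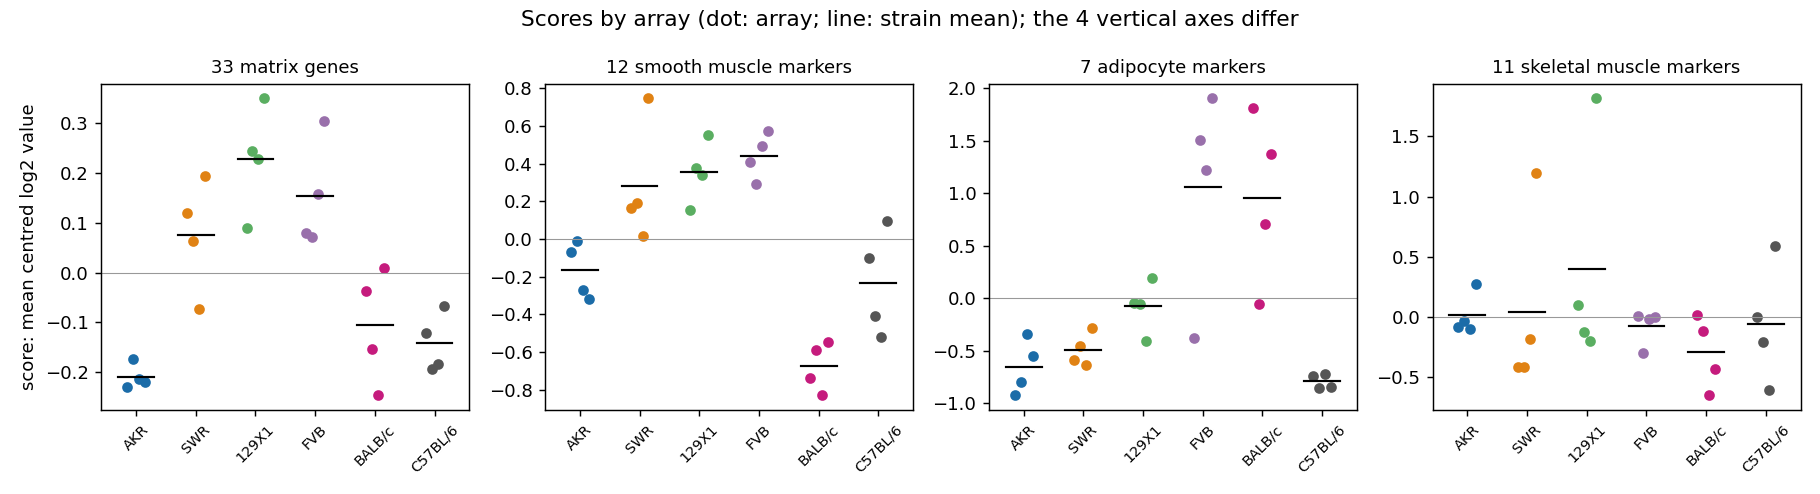
Scores by array (dots) and strain means (lines), a score being the mean over a list of log2(intensity + 16) minus the gene mean, for the 33 members and for smooth muscle, adipocyte and skeletal muscle markers; the vertical axes differ. The lowest mean is in AKR for the members and in BALB/c for smooth muscle markers, and SWR replicate 4 and 129X1 replicate 4 stand apart in skeletal muscle markers.

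Within strains, the members varied together weakly. Over 528 pairs of members the correlation of deviations from the strain means, over 24 arrays, had a median of 0.14, against 0.00 over pairs of all genes tested, and 9.66% of pairs exceeded 0.5, against 2.44%. Arrays are shared by all pairs, and these values are a description. The highest was between Fn1 and Timp3, at 0.77. Timp3 had the highest median correlation with the other members, 0.41, and Timp1 (-0.14), Mmp2 (-0.08) and Col6a3 (-0.06) the lowest. In 4 cases members are next to each other on a chromosome in the RefSeq order of genes, and for these the within-strain correlations were 0.49 for Col3a1 and Col5a2 (chromosome 1), 0.49 for Col6a2 and Col6a1 (10), 0.44 for Dcn and Lum (10) and 0.47 for Col4a1 and Col4a2 (8). Across the 6 strain means Dcn and Lum had a correlation of -0.15, whereas Col4a1 and Col4a2, which share a promoter region, had a correlation of 0.83.

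Other genes of matrix biology were read in 5 lists. Of 11 further matrix proteins tested, 9 passed the F test (against the same 36.4% of all probe sets). In AKR 7 were lower and 1 higher, against 5.12% and 4.67% of all probe sets. In 129X1 5 were higher (6.38%), in FVB 4 (3.45%) and in C57BL/6 2 (5.65%). In BALB/c 4 were lower (10.6%), and in SWR 1 was higher and 1 lower (5.52% and 5.04%). Those lower in AKR were Mgp, Igfbp7, Sparcl1, Efemp1, Dpt, Ogn and Prelp, and the one higher was Fmod. Mgp, matrix Gla protein, which inhibits calcification, was highest in C57BL/6 and lowest in BALB/c, a 3.05-fold span, and Igfbp7, a secreted binding protein, spanned 2.77-fold from BALB/c to 129X1. Of 9 laminin and basement membrane genes 4 passed, led by Nid1, nidogen-1, which joins laminin to collagen IV. Nid1 read 104, 45.6, 52.7 and 49.5 in AKR and 167, 238, 235 and 236 in FVB, without overlap, and was lower in AKR (-1.10, adjusted p = 3.98e-05) and higher in FVB (0.84, 0.00113). Agrn, agrin, spanned 1.83-fold from BALB/c to 129X1.

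Of 13 genes for collagen synthesis and cross-linking 5 passed, close to the 36.4% of all probe sets. In BALB/c 3 were lower (10.6% of all probe sets), in C57BL/6 2 (5.45%) and in 129X1 1 (5.27%). In SWR 2 were higher (5.52%) and in FVB 1 (3.45%), and in AKR 1 was higher and 1 lower (4.67% and 5.12%). Plod2, a lysyl hydroxylase, was higher in SWR (0.67, adjusted p = 0.00369) and lower in BALB/c (-0.76, 0.000657), and Bmp1, the procollagen C-proteinase, was lower in C57BL/6 (-0.78, 0.0147) and BALB/c (-0.64, 0.033). The Bmp1 calls were lost without replicate 2 or 4 of C57BL/6 and replicate 1, 2 or 4 of BALB/c, respectively. Both were also lost with probe sets averaged, so they depend on the probe set read. Bmp1 lay below the filter level on replicate 4 of C57BL/6, replicate 4 of BALB/c and replicate 3 of FVB. Of 16 genes of the TGF-beta pathway 9 passed. In 129X1 5 were higher and 1 lower (6.38% and 5.27% of all probe sets). In BALB/c 3 were lower (10.6%), and in AKR 2 were higher (4.67%). Ccn2, connective tissue growth factor, a target of TGF-beta, read 399, 468, 500.0 and 871 in 129X1 and 161, 162, 189 and 146 in BALB/c. It was higher in 129X1 (1.22, adjusted p = 0.000381) and lower in BALB/c (-0.72, 0.0207, though not without BALB/c replicate 1, 2 or 4), and Tgfbr3, the co-receptor betaglycan, was higher in AKR (0.93, 0.00226). Of 11 matrix receptors 5 passed, among them Itga8, to which the limit below applies. Cd44, the hyaluronan receptor, was higher in 129X1 (0.52, adjusted p = 0.0161, though not without its replicate 1, 3 or 4) and lower in BALB/c (-0.70, 0.00108). Itga8, an integrin chain that binds fibronectin, read 49.0 to 95.4 in 129X1, 38.8 to 61.9 in FVB and 28.7 to 78.5 in SWR. Every array of AKR, BALB/c and C57BL/6 lay below the filter level, at 1.86 to 29.3, so Itga8 passed the filter only through the strains where it was high. Its F test is therefore not read as a result, and no size of difference is given.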

How the data were processed

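Total RNA of ventral prostate from 6 strains, 4 biological replicates each, was measured on 24 arrays. The deposited table holds 1 linear intensity per probe set and array. The submitters' processing notes name MAS5, with no role or version given, and the mean over all values of the deposited table was 143. A genome build is not given in the sources used here. The members and lists were chosen with earlier results of these data known.

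Trimmed means (2% at each end), which ran from 91.4 to 104.6, were brought to 98.7 on every array, 16 was added and log2 taken. The 22690 probe sets less 64 controls and less 6851 below the filter (above their array's own 40th percentile on 4 or more arrays) gave 15775 to test. The platform annotation gave 1 symbol for 20393 probe sets, several for 691 and none for 1606, and 20364 matched RefSeq (GRCm38.p6).

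limma 3.58.1 in R 4.3.3 fitted 1 mean per strain over all 24 arrays, with no covariate. It tested the 6 means together (F test), 1 strain against the average of the rest for each strain, and the 15 pairs. P-values are 2-sided and Benjamini-Hochberg adjusted over all 15775 probe sets within a contrast, called at 0.05. The fit was tested on simulated data. Members described in full were the 12 past the F test with the largest span, and per strain the 2 highest and the 2 lowest called differences (14 genes); from each other list, the 2 past the F test with the largest span were named. Other genes and the motif examples were named after their values were seen. Alternatives covered the pseudocount, scaling, filter, probe set choice, replicate number as a block, marker scores as covariates and each array left out.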

Additional observations from a re-analysis of the deposited data

Results flagged for a closer look

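In 6 of 216 groups of 4 arrays (35 members and the score of the set, in 6 strains), 1 array lay far from the other 3 by Dixon's ratio of its gap to the group's range. Chance alone gives about 1 group in 20, a larger share than was seen, so these groups are listed as a description only. Col4a2 was low on SWR replicate 3 (ratio 0.93; 6.18 on the log2 scale against 6.89 to 6.94) and high on FVB replicate 4 (0.845; 7.30 against 6.85 to 6.92). Eln was low on AKR replicate 2 (0.844; 6.57 against 6.98 to 7.06), and Fbln1 was low on 129X1 replicate 1 (0.867; 7.0 against 7.18 to 7.21). Tnc was high on FVB replicate 3 (0.894; 5.62 against 5.22 to 5.26). Mfap4, below the filter on low values, read high on FVB replicate 4 (0.834; 4.54 against 4.28 to 4.33). Mfap4 was not tested, and the other 4 genes were called in no strain against the mean of the others.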

How the results depend on the processing

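Of 42 called differences of members, 7 held under all 36 alternatives: Col6a3 in FVB and BALB/c, Dcn, Postn and Mmp2 in AKR, and Timp3 and Col4a1 in 129X1. The other 35 were lost under at least 1. Col6a3, Dcn and Postn have only 1 probe set each, so averaging probe sets could not change their values. With the score of smooth muscle markers as a covariate, 3 changed sign in BALB/c without being called (Col4a1 0.014, Sparc 0.104, Timp3 0.283), 11 members differed among strains, 5 were lower in AKR, 0 higher in SWR, 2 higher in 129X1, 0 higher in FVB, 0 lower in BALB/c, 1 lower in C57BL/6, and 2 stood apart from every other strain. With the adipocyte score as a covariate, 4 were lower in AKR, 1 higher in FVB, 1 higher in BALB/c, 0 higher and 2 lower in C57BL/6, and 0 stood apart from every other strain. With the skeletal muscle score 7 were higher in FVB. A pseudocount of 64 gave 1 lower in 129X1 and 5 higher in FVB, intensities as deposited 5 higher in FVB and 1 higher and 10 lower in BALB/c, no filter 1 higher in SWR and 1 lower in FVB, a filter at the 60th percentile 1 lower in 129X1 and 6 higher in FVB, and averaged probe sets 1 lower in FVB and 1 higher in BALB/c. Without SWR replicate 4 and 129X1 replicate 4, an alternative chosen after seeing the data, 1 was higher in SWR and 6 in FVB. The cause of these shifts was not tested, and the shares of all probe sets called under these alternatives are not given beside the counts. With each array left out in turn, members differing among strains numbered 20 to 24, lower in AKR 5 to 13, higher in SWR 0 to 3, higher in 129X1 6 to 9, lower in 129X1 0 to 1, higher in FVB 1 to 6, lower in FVB 1 to 2, higher in BALB/c 1 to 2, lower in BALB/c 3 to 9, higher in C57BL/6 1, lower in C57BL/6 2 to 9, and apart from every other strain 3 to 6. The replicate number as a block gave 21 members differing among strains and 5 higher in FVB, and changed none of the other counts by over 1.5 times. Arrays of the same number in different strains did not deviate together on average (mean correlation 0.0053, -0.208 to 0.153 over 60 pairs), and 3 of 24 matched their own number best. Whether some arrays of the same number shared a batch was not tested. Dim members (Fbln5, Tnc, Col15a1, Timp1) are measured closest to the background.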
